A study of Mus musculus with 7 samples.

Results

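The genes described here are 10 genes of the circadian clock, picked by symbol and not by a cutoff on their values: the activators Arntl, Clock and Npas2, the repressors Per1, Per2, Per3, Cry1 and Cry2, and the output factors Dbp and Tef. All 10 symbols were found among the 14795 genes of the deposited table. The question was whether the duodena of the study were collected at one phase of the clock, between the genotypes and between single mice. The libraries came from duodena of male mice on HFD, 1 per mouse, with 3 Ppara lox/lox and 4 Ppara I-KO mice.

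All 7 mice carried the floxed Ppara allele on both chromosomes, were of the C57BL/6 strain per the labels and of a predominantly C57BL6/J background per the methods, were kept in a conventional housing zone and lived on 12 h of light and 12 h of dark. Ppara I-KO mice also carried Villin-Cre, a transgene whose promoter is active in the epithelium of the intestine, so that cells outside the epithelium keep Ppara. The lox/lox mice were littermates without Cre. Per the labels, food was withheld from 12 h to 18 h of the clock on the last day and then given back, and all mice were killed at midnight, which falls in the dark phase of the housing given in the study's methods. The labels do not give the diet or an age, and the methods name a shorter fast for mice in general. A single time was sampled, so the data hold no cycle, and no phase in hours can be read from them.

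The clock is a feedback loop of transcription that runs in nearly every cell. ARNTL (also called BMAL1) pairs with CLOCK or with its relative NPAS2, binds E-box sequences and switches on the Per and Cry genes, whose proteins return to the nucleus and shut the pair off. In an interlocking loop, the receptors NR1D1 and NR1D2 repress Arntl, Npas2 and Nfil3 through RORE sequences. DBP, TEF and HLF activate genes with a D-box, which NFIL3 represses. In peripheral tissues of the mouse, Arntl and Npas2 therefore peak at nearly the opposite time of day to Nr1d1, Dbp, Tef and Per3, and meal times can set the clock of the gut.

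These control sequences can be read in the promoters of the genes that are compared below. RefSeq windows of the GRCm38.p6 assembly, from 250 bases before to 50 bases after each start, were at hand for 9 of the 10 genes, all but Per2, and were searched on both strands. The starts are those of RefSeq and can lie inside the GENCODE gene positions used below. The stretches shown for Per1 and Tef lie wholly inside the position of the gene, and that of Nfil3 mostly. The sequences below show the clock elements found ahead of the RefSeq start, 5′ to 3′ on the strand of the gene, with the element in capitals.
Per1 (chr11:69098758-69098813, plus strand): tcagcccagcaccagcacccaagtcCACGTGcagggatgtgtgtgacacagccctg
Per3 (chr4:151044791-151044895, minus strand): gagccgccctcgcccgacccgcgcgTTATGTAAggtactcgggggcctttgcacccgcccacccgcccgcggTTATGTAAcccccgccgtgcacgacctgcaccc
Cry1 (chr10:85185084-85185158, minus strand): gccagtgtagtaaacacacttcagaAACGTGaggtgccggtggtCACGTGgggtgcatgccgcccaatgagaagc
Tef (chr15:81802521-81802576, plus strand): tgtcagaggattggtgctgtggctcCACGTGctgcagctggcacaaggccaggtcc
Nfil3 (chr13:52981040-52981076, minus strand): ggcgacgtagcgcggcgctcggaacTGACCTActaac

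In Per1, Cry1 and Tef the capitals mark the E-box CACGTG, which reads the same on both strands and was present in 7.15% of the 32841 promoter windows. In Cry1 they also mark AACGTG, the other strand of the E-box variant CACGTT, which 4.69% of the windows held and which was also found ahead of Cry2 and Nr1d1. Per3 held the D-box TTATGTAA at positions -205 and -158, counted from its start, and 1.06% of the windows held this element or its relative TTACGTAA. Nfil3, a repressor of D-box genes that is no member of the list, held TGACCTA, the other strand of the RORE core TAGGTCA found in 2.61% of the windows, at position -12. None of these elements was found in the windows of Clock, Npas2 and Dbp, and that of Arntl held a RORE core only beyond a second start. A match of letters is not a measured site.

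Between 20741373 and 25885445 reads per library fell on the genes of the table, and 1 read was worth between 0.0393 and 0.0530 CPM, the normalized count of the deposited table. The 6 markers of epithelium, 6 of enterocytes and 4 of duodenum used to check the label were all present. Ppara itself ranged from 49.3 to 63.2 CPM in lox/lox and from 33.0 to 69.9 CPM in I-KO libraries, with I-KO replicate 4 the highest, and a gene total does not check the removal of the floxed part. The libraries of lox/lox replicate 3 and I-KO replicate 1 stood apart from the rest. In lox/lox replicate 3 the summed duodenal markers came to 220 CPM, against 343 to 443 CPM in the other 6 libraries. The summed epithelial markers were also the lowest there, at 10741 CPM, against 11481 to 14103 CPM. The summed enterocyte markers were not low there, at 41318 CPM, within the 32633 to 44796 CPM of the other libraries. In I-KO replicate 1 the summed pancreatic acinar genes came to 283 CPM, against 47.5 CPM in lox/lox replicate 2 and at most 2.59 CPM elsewhere. In RNA from whole tissue, fewer cells of a type and less RNA per cell cannot be told apart.

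No difference between the genotypes was detected for any of the 10 clock genes. Of the 10, 6 were higher and 4 were lower in Ppara I-KO. Their log2 fold changes lay between -0.20 for Per2 and 0.26 for Tef around a median of 0.05, where the median over all genes tested was 0.0017. By limma, 0 of the 10 passed an adjusted p of 0.05, where 0.0299% of the 13399 genes tested passed it. At an unadjusted p of 0.05, 0 of the 10 passed by limma, against 4.74% of all genes tested. The groups overlapped for each of the 10, while 6.19% of all genes tested had groups that did not overlap. The adjusted p from limma was between 0.954 and 0.988 for the 10 genes. P-values here measure the spread between mice that the labels call biological replicates.

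**Figure D1:**
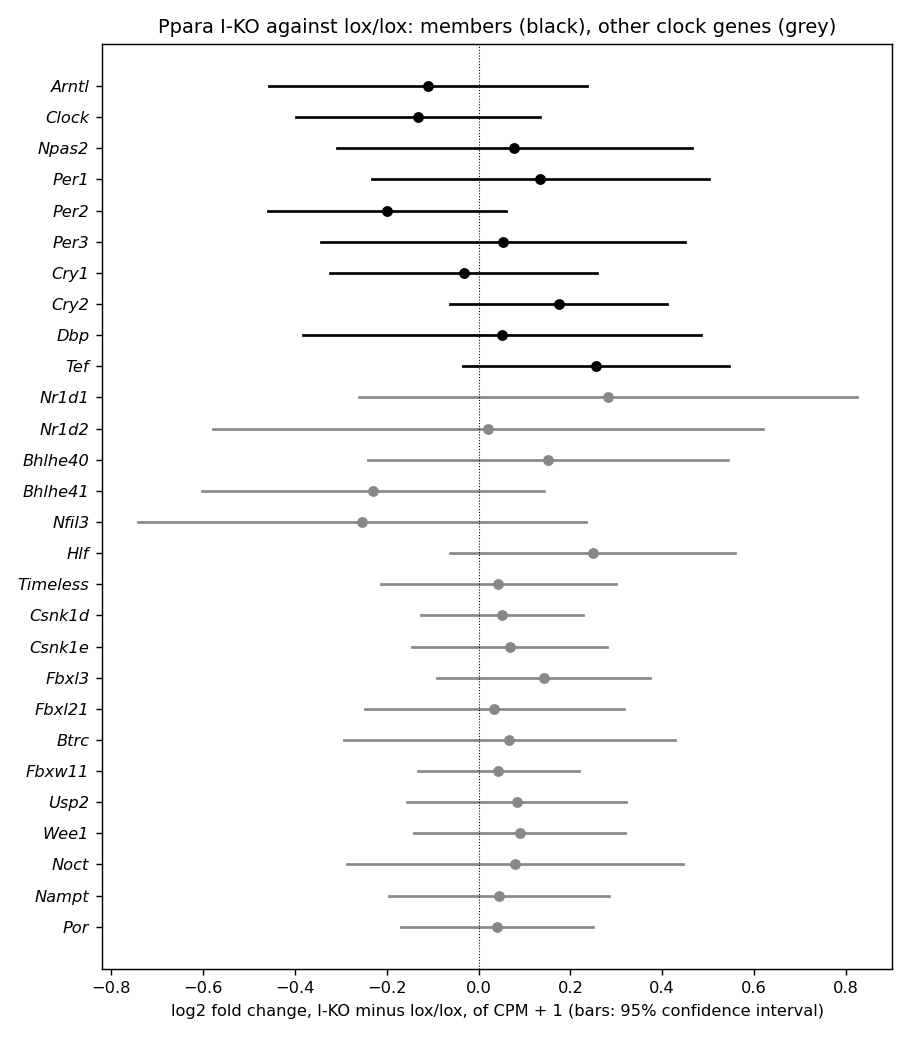
Log2 fold change of CPM + 1, I-KO minus lox/lox, of the 10 clock genes (black) and 18 further clock genes (grey), with the 95% confidence interval from limma as a bar. The interval of every gene drawn includes 0, from 0.24 on either side for Cry2 to 0.43 for Dbp among the 10.

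The width of these intervals sets what the comparison can exclude. On the log2 scale the 95% intervals of the 10 genes reached between 0.24 and 0.43 to either side, with a median of 0.32. Among the 10, the interval that reached lowest was that of Per2, which allows a level in I-KO down to 0.728 times that of lox/lox, and the one that reached highest was that of Tef, up to 1.46 times. These folds are of CPM + 1 and understate the change of a gene as low as Dbp.

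Among the activators, Arntl showed one library far above the rest. Arntl, the partner common to both activator pairs (GRCm38, chromosome 7, 113207465 to 113314126), stood at 39.5, 38.9 and 60.4 CPM in the lox/lox mice, given here and below in the order of their replicate numbers. The I-KO mice had 45.9, 42.5, 40.3 and 39.0 CPM. Thus 6 libraries lay within 38.9 to 45.9 CPM, and lox/lox replicate 3 was 1.47 times their mean. The counting interval of Arntl in lox/lox replicate 3, 57.4 to 63.5 CPM (exact Poisson, 95%), does not reach that of any other library, the next ending at 48.9 CPM in I-KO replicate 1. The group means were 46.2 ± 12.3 CPM (SD, n = 3) and 41.9 ± 3.03 CPM (SD, n = 4), with a log2 fold change of -0.11 (SE 0.15, adjusted p = 0.971 by limma). Without lox/lox replicate 3 the log2 fold change of Arntl turned to 0.09 (SE 0.10, adjusted p = 0.951 by limma).

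Npas2 was high in the same library and in I-KO replicate 1. Npas2, which can stand in for CLOCK (chromosome 1, 39193731 to 39363236), had 33.4, 29.9 and 45.0 CPM in lox/lox and 47.0, 30.9, 39.8 and 34.5 CPM in I-KO replicates. I-KO replicate 1 and lox/lox replicate 3 were the highest of Npas2, and the lowest values, 29.9 and 30.9 CPM, came from 1 mouse of each genotype. The log2 fold change was 0.08 (SE 0.17, adjusted p = 0.977 by limma), and it turned to -0.03 without I-KO replicate 1 and was 0.24 without lox/lox replicate 3.

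Clock, the other partner of ARNTL (chromosome 5, 76209868 to 76304792), had 67.1, 67.1 and 76.2 CPM in lox/lox and 53.1, 65.1, 64.7 and 74.0 CPM in I-KO replicates. Its lowest value was in I-KO replicate 1 and its highest in lox/lox replicate 3, a ratio of 1.44. The log2 fold change of Clock was -0.13 (SE 0.12, adjusted p = 0.954 by limma).

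**Figure D2:**
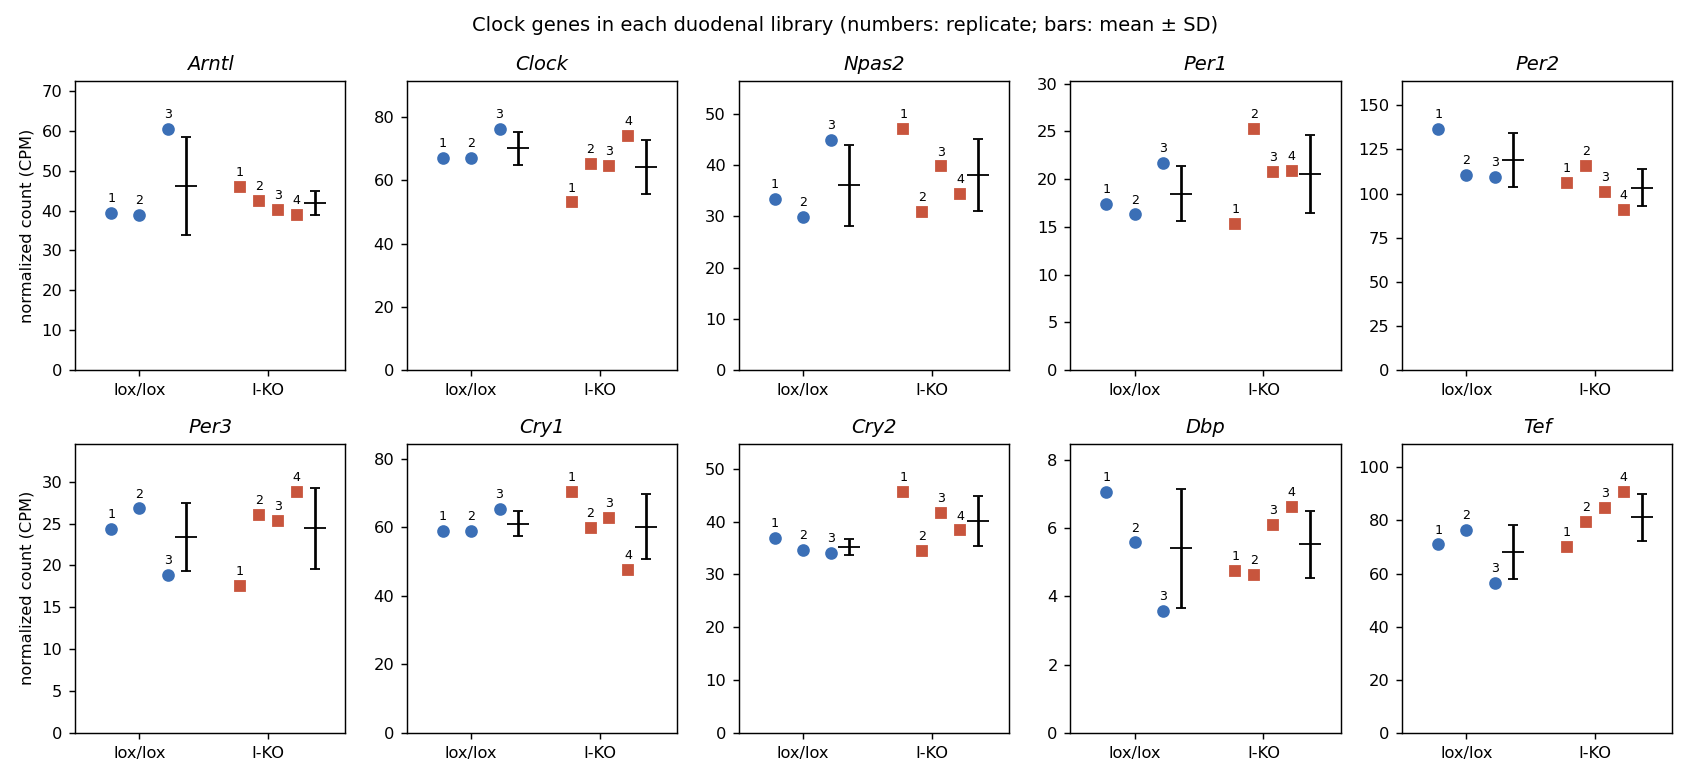
Normalized count (CPM, linear axis from 0) of each of the 10 clock genes in each library, with the replicate number above each point and the mean ± SD of the group beside it (blue circles lox/lox, n = 3; red squares I-KO, n = 4). The groups overlap in every panel; lox/lox replicate 3 lies alone at the top for Arntl and at the bottom for Dbp and Tef.

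The Per genes encode repressors of the loop, and Per1 and Per2 also answer directly to cues from outside the cell. The highest values of the 3 Per genes lay in 3 different libraries. Per1 (chromosome 11, 69095217 to 69109960) had 17.4, 16.3 and 21.7 CPM in lox/lox and 15.3, 25.2, 20.8 and 20.9 CPM in I-KO replicates. The lowest and the highest values of Per1 were both in I-KO libraries, replicates 1 and 2, and its log2 fold change was 0.13 (SE 0.16, adjusted p = 0.963 by limma).

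Per2 (chromosome 1, 91415982 to 91459324) was the most abundant Per gene, with 136, 111 and 109.6 CPM in lox/lox and 106, 116, 101 and 90.7 CPM in I-KO replicates. I-KO replicates 1, 3 and 4 lay below every lox/lox library, while I-KO replicate 2 lay above 2 of them. The group means were 119 ± 15.1 CPM (SD, n = 3) and 103 ± 10.4 CPM (SD, n = 4). The log2 fold change was -0.20 (SE 0.11, adjusted p = 0.954 by limma). It lay inside the variation among mice, with p = 0.200 in an exact two-sided permutation of the genotypes.

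Per3 (chromosome 4, 151003652 to 151044665), whose promoter carries the pair of D-boxes shown above, had 24.3, 26.8 and 18.9 CPM in lox/lox and 17.5, 26.0, 25.3 and 28.8 CPM in I-KO replicates. Its lowest values were those of I-KO replicate 1 and lox/lox replicate 3, and the other 5 libraries lay between 24.3 and 28.8 CPM. The log2 fold change was 0.05 (SE 0.17, adjusted p = 0.987 by limma), and it turned to -0.09 without lox/lox replicate 3.

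Of the cryptochromes, the partners of the PER proteins in repression, Cry2 varied least of the 10 genes, with a ratio of the highest to the lowest library of 1.34. Cry1 (chromosome 10, 85131700 to 85185064) had 58.9, 58.9 and 65.3 CPM in lox/lox and 70.3, 59.8, 62.8 and 47.6 CPM in I-KO replicates. The highest and the lowest value of Cry1 were again in I-KO libraries, replicates 1 and 4, and its log2 fold change was -0.03 (SE 0.13, adjusted p = 0.988 by limma). Cry1 turned to 0.02 without lox/lox replicate 3.

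Cry2 (chromosome 2, 92403646 to 92434043) had 36.8, 34.6 and 34.1 CPM in lox/lox and 45.6, 34.5, 41.6 and 38.3 CPM in I-KO replicates. I-KO replicates 1, 3 and 4 were above every lox/lox library and replicate 2 was among them. The log2 fold change of Cry2 was 0.17 (SE 0.10, adjusted p = 0.954 by limma; p = 0.143 by exact two-sided permutation).

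Of the output genes, Dbp showed the widest range of the 10 and Tef the largest difference between genotypes. Dbp, a PAR bZIP factor (chromosome 7, 45705088 to 45710203), had 7.06, 5.58 and 3.58 CPM in lox/lox and 4.74, 4.64, 6.09 and 6.61 CPM in I-KO replicates. The highest and the lowest Dbp values were both lox/lox, replicates 1 and 3, and differed 1.97 times. They rest on 143 and 91 reads, with counting intervals of 5.95 to 8.32 CPM and of 2.88 to 4.39 CPM (exact Poisson, 95%) that do not meet. The group means of Dbp were nearly equal, 5.41 ± 1.75 CPM (SD, n = 3) and 5.52 ± 0.982 CPM (SD, n = 4), with a log2 fold change of 0.05 (SE 0.19, adjusted p = 0.987 by limma). Without lox/lox replicate 3 it turned to -0.17. Of the exon bases of Dbp, 18.0% overlap Sphk2 on the opposite strand, and whether the counting used the strand of the kit is not given in the sources used here. Cry2, Tef and Arntl share 4.67%, 2.45% and 0.439% of their exon bases with genes on the other strand.

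Tef, a second PAR bZIP factor (chromosome 15, 81802421 to 81826863), had 71.0, 76.5 and 56.6 CPM in lox/lox and 69.9, 79.3, 84.8 and 90.7 CPM in I-KO replicates. Tef in I-KO replicates 2, 3 and 4 was above every lox/lox library, while I-KO replicate 1 lay below lox/lox replicates 1 and 2. The group means were 68.0 ± 10.3 CPM (SD, n = 3) and 81.2 ± 8.84 CPM (SD, n = 4). The log2 fold change was 0.26 (SE 0.13, unadjusted p = 0.0762 and adjusted p = 0.954 by limma), and the exact two-sided permutation test gave p = 0.143, where the smallest p that 3 against 4 mice allow is 0.0286. With lox/lox replicate 3 left out the log2 fold change of Tef was 0.13. With I-KO replicate 1 left out it was 0.32, with an unadjusted p of 0.0325 and an adjusted p of 0.980 from limma.

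Levels were compared between genes per kilobase of exon sequence, as the mean over the 7 libraries. Per2 (18.8 CPM per kb) and Cry1 (18.1 CPM per kb) stood at the top and did not differ beyond their spread, since Per2 was above Cry1 in 4 of 7 libraries. Both were above the next gene, Tef (9.60 CPM per kb), in every library. Npas2 (7.77), Cry2 (6.00), Arntl (5.82) and Clock (4.86 CPM per kb) followed, and of these neighbours Tef was above Npas2 in 5, Cry2 was above Arntl in 5 and Arntl above Clock in 6 of 7 libraries. Per1 (3.49), Per3 (2.49) and Dbp (1.83 CPM per kb) came last, in this order in all 7 libraries. Per2 and Cry1 thus led and Dbp closed the order in every library of both genotypes.

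For the rest of the clock, a list of 23 genes, no difference between the genotypes was detected either. Of these, 22 were in the table and 19 passed the filter on low values, of which 17 were higher and 2 lower in I-KO. Of all 13399 genes tested, 6784 were higher, and the direction of the list was not tested. The log2 fold changes of the 19 spanned -0.25 to 0.28 around a median of 0.07. By limma 0 of the 19 passed an adjusted and 0 an unadjusted p of 0.05, against the shares of 0.0299% and 4.74% of all genes tested. For 0 of the 19 did the groups not overlap, against 6.19% of all genes tested.

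The nuclear receptors that repress Arntl varied more within the genotypes. Nr1d1, known as REV-ERBα, had 3.36, 2.27 and 1.02 CPM in lox/lox and 1.96, 3.38, 2.86 and 2.85 CPM in I-KO replicates. The value in lox/lox replicate 3 rests on 26 reads and was 0.367 times the mean of the other 6 libraries. Its relative Nr1d2 had 17.8, 20.8 and 12.2 CPM in lox/lox and 10.4, 16.8, 18.1 and 24.9 CPM in I-KO replicates, so I-KO replicate 1 and lox/lox replicate 3 were the lowest. Of the exon bases of Nr1d1, 8.55% overlap Thra on the opposite strand.

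Nfil3, whose promoter carries the RORE core shown above, had 19.1, 17.7 and 30.1 CPM in lox/lox and 21.0, 17.0, 22.4 and 13.2 CPM in I-KO replicates. Like Arntl it was highest in lox/lox replicate 3, at 1.64 times the mean of the other libraries, and it was lowest in I-KO replicate 4. Hlf, the third PAR bZIP factor, showed 19.4, 15.9 and 14.8 CPM in lox/lox and 19.6, 16.6, 19.5 and 24.4 CPM in I-KO replicates. Hlf was thus highest where Nfil3 was lowest, in I-KO replicate 4, and lowest in lox/lox replicate 3. The E-box repressors Bhlhe40 and Bhlhe41 ranged from 201 to 309 CPM and from 2.48 to 4.89 CPM, with the lowest value of each in I-KO replicate 4. Ciart, listed under the older symbol Gm129, reached at most 1.2 CPM and was below the filter, as were Rora and Arntl2.

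In 4 libraries, 2 of each genotype, the genes that peak at opposite times of day deviated in opposite directions. For each library, the mean deviation of Dbp, Tef and Per3 from their 7-library means was subtracted from that of Arntl and Npas2, on the scale of log2(CPM + 1). The difference was -0.23, -0.30 and 0.77 in lox/lox replicates 1 to 3. It was 0.44, -0.15, -0.14 and -0.39 in I-KO replicates 1 to 4. The 2 positive values thus came from 1 library of each genotype, lox/lox replicate 3 and I-KO replicate 1, and the lowest from I-KO replicate 4. In these libraries and in lox/lox replicate 2, Arntl and Npas2 deviated to one side and Dbp, Tef and Per3 to the other. The genotypes overlapped, with medians of -0.23 and -0.14. This measure was put together after the values had been seen, so it is a description without a test.

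**Figure D3:**
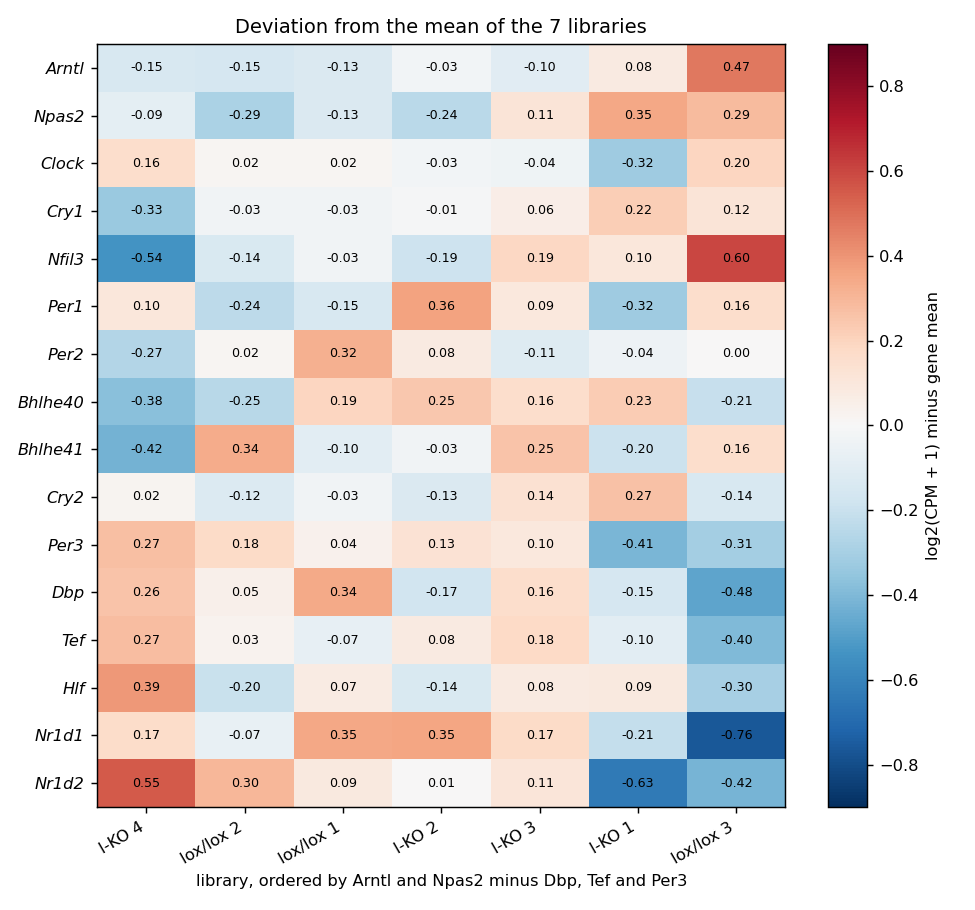
Deviation of log2(CPM + 1) from the mean of the 7 libraries for the 10 clock genes and 6 further clock genes (rows) in each library (columns, ordered by the difference between Arntl and Npas2 on one side and Dbp, Tef and Per3 on the other). The column of lox/lox replicate 3 is high for Arntl (0.47) and Nfil3 (0.60) and low for Dbp (-0.48), Tef (-0.40) and Nr1d1 (-0.76), and that of I-KO replicate 4 is low for Nfil3 (-0.54) and high for Nr1d2 (0.55).

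Genes that this measure did not use lay in a similar order at its ends. The deviation of Nfil3 minus the mean deviation of Nr1d1, Nr1d2 and Hlf was 1.09 in lox/lox replicate 3 and 0.35 in I-KO replicate 1, the 2 highest, and -0.91 in I-KO replicate 4, the lowest. In the other 4 libraries it lay between -0.26 and 0.06. Within it, Hlf in I-KO replicate 1 went the other way, with a deviation of 0.09. Bhlhe40, Bhlhe41 and Ciart were not used. This second measure was not planned either and comes from the same libraries, so it is a description and no independent support. As a plain ratio of CPM, Arntl over Dbp was 5.59, 6.96 and 16.9 in lox/lox replicates 1 to 3 and 9.69, 9.16, 6.61 and 5.90 in I-KO replicates 1 to 4. The ratio in lox/lox replicate 3 stood far above the other 6, and that of I-KO replicate 1 was the next.

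The extreme values lay unevenly over the libraries, both for the 10 clock genes and for all genes tested. The departure from the share of all genes was largest for lox/lox replicate 3, which held more, and for I-KO replicate 3, which held fewer. Counts out of 10 genes are coarse, and their departure from these shares was not tested. Lox/lox replicate 3 held the highest or the lowest value for 5 of the 10 clock genes, where it did so for 25.2% of all genes tested. I-KO replicate 1 did so for 6 of the 10, against 41.8% of all genes tested, and I-KO replicate 4 for 4 of the 10, against 37.2%. I-KO replicate 3 held none, against 32.1%. Lox/lox replicates 1 and 2 held 2 each, against 26.9% and 20.6%, and I-KO replicate 2 held 1, against 16.1%.

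Of 6 pairs of clock genes compared over the 7 libraries, 1 was related beyond the spread. Arntl and Dbp ran opposite to each other (Pearson r = -0.879, exact two-sided permutation p = 0.00635, adjusted p = 0.0381 over the 6 pairs), while the rank correlation did not pass (Spearman rho = -0.714, exact permutation p = 0.0881, adjusted p = 0.264). Without lox/lox replicate 3 and I-KO replicate 1, the libraries farthest from the median of Arntl, r was -0.750 over 5 libraries and no longer passed. Leaving out lox/lox replicate 3 or any 1 of the 4 I-KO libraries also ended the call, though r kept its sign, with r between -0.93 and -0.78 and an adjusted exact permutation p between 0.0667 and 0.375. With the genotype mean removed r was -0.889.

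The other 5 pairs did not pass. Arntl and Npas2 had r = 0.684 (exact permutation p = 0.0550, adjusted p = 0.145; rho = 0.714, p = 0.0881, adjusted p = 0.264), which was gone without lox/lox replicate 3 and I-KO replicate 1 (r = -0.07). Dbp and Tef had r = 0.702 (exact permutation p = 0.0724, adjusted p = 0.145; rho = 0.5, p = 0.267, adjusted p = 0.533), and r was 0.281 without lox/lox replicate 3 and 0.817 without lox/lox replicates 1 and 3. Dbp and Per3 had r = 0.664 (exact permutation p = 0.115, adjusted p = 0.173; rho = 0.357, p = 0.444, adjusted p = 0.667), and 0.618 without the same 2 libraries.

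Npas2 and Dbp had r = -0.485 (exact permutation p = 0.265, adjusted p = 0.318; rho = -0.250, p = 0.595, adjusted p = 0.714), and r turned to 0.462 without lox/lox replicate 3 and I-KO replicate 1. Per1 and Per2 were unrelated, with r = -0.171 (exact permutation p = 0.742, adjusted p = 0.742; rho = 0.0357, p = 0.963, adjusted p = 0.963) and r = -0.357 without I-KO replicate 1 and lox/lox replicate 2. The libraries share a scaling, and values of the same library enter both genes of a pair.

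**Figure D4:**
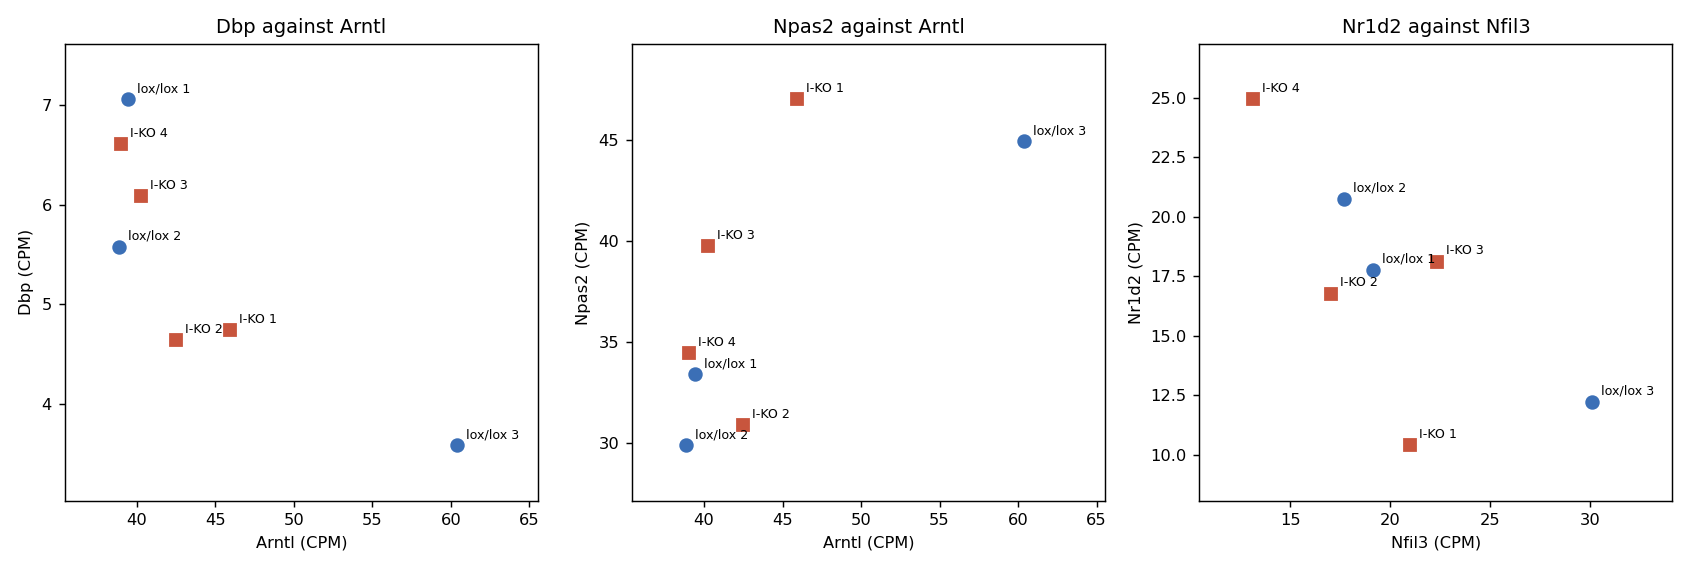
Dbp against Arntl, Npas2 against Arntl, and Nr1d2 against Nfil3, in CPM on linear axes that do not start at 0, with 1 point per library (blue circles lox/lox, red squares I-KO). Lox/lox replicate 3 lies at 60.4 CPM of Arntl and 3.58 CPM of Dbp, apart from the other 6 libraries, which lie between 38.9 and 45.9 CPM of Arntl.

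The spread between mice of one genotype was larger for most of the 10 clock genes than for the typical gene. The SD of log2(CPM + 1) after the genotype mean was above the median of all genes tested (0.144) for 9 of the 10, all but Cry2. Dbp, with an SD of 0.31, exceeded 93.8% of the genes tested, Per3 exceeded 91.0%, Npas2 90.1%, Per1 87.5% and Arntl 84.0%. Clock and Per2 were near the middle, at 60.6% and 57.4%, and Cry2 stood at 44.8%. Of the 19 other clock genes tested, only 10 were above the median of all genes tested, with a median SD of 0.154 over the list. Within that list Nr1d2 (98.3%), Nr1d1 (97.5%) and Nfil3 (96.2%) were near the top, and the lowest gene exceeded 4.69% of the genes tested. For Dbp and Arntl, counting error of the reads was smaller than the spread between mice, with an SD of 0.11 for Dbp and 0.05 for Arntl on the log2 scale.

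One library carried the spread of Arntl. Without lox/lox replicate 3 the SD of Arntl fell from 0.237 to 0.0875, from above 84.0% to above 19.5% of the genes tested. That of Dbp fell from 0.311 to 0.215, still above 78.3% of genes, and that of Tef reached 49.8%. Per3 and Per1 stayed at 87.9% and 85.3% without it. Without I-KO replicate 1 the SD of Per1 stood at 71.9%, that of Per3 at 74.3% and that of Clock at 34.8%, and 8 of the 10 were above the median in either case.

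Among all other genes tested, likeness to Dbp and Arntl was measured as Pearson's r over the 7 libraries. The 5 genes outside the 10 that ran most like Dbp were Slc35d2 (0.963), Ankrd13a (0.959), Tm4sf5 (0.947), Tsta3 (0.939) and Zfp433 (0.937). Those most like Arntl were Gm7609 (0.983), Unc5c (0.963), Ggcx (0.956), Ptpdc1 (0.950) and Mbd4 (0.943). With 7 libraries, 12 genes had an r above 0.9 to Dbp and 18 to Arntl. By the same measure, Nr1d1 ranked 109 of 13398 genes for likeness to Dbp, with r = 0.766, followed by Nr1d2 at 188 (0.713), Hlf at 190 (0.711), Nampt at 203 (0.703) and Tef at 205 (0.702). Counted from the most opposite gene, Dbp ranked 27, Nr1d1 31 and Tef 43 of 13398 for Arntl. Other clock genes did not run like Dbp. Cry2 ranked 3471 (0.225), Per2 6037 (0.0427), Clock 6704 (-0.00113) and Per1 10006 (-0.265). For Arntl, the r of Clock was 0.192 and that of Per2 0.0102. These ranks are descriptions over 7 libraries, with lox/lox replicate 3 included.

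Markers of cell types and gut sites stood apart in some of the libraries at the ends. For some lists lox/lox replicate 3 and I-KO replicate 1 lay on one side, and for smooth muscle on opposite sides. The summed duodenal markers were lowest in these 2 libraries, at 220 and 343 CPM, against 364 to 443 CPM elsewhere. In lox/lox replicate 3 the iron reductase gene Cybrd1 stood at 16.9 CPM, below a range of 56.1 to 78.5 CPM in the rest. The iron exporter Slc40a1 stood there at 49.3 CPM, below 103 to 162 CPM. I-KO replicate 1 was next lowest for Cybrd1 (56.1 CPM) and Slc40a1 (103 CPM). It was also next lowest for Pdx1 (18.15 CPM, against 13 CPM in lox/lox replicate 3), but not for Gata4 (165.6 CPM). I-KO replicate 4, at the opposite end of the clock measure, lay within the others for the summed duodenal markers (364 CPM) and second lowest for the epithelial ones (11481 CPM). The summed smooth muscle markers were lowest in lox/lox replicate 3, at 1063 CPM, and highest in I-KO replicate 1, at 1550 CPM, with the others between 1102 and 1320 CPM. The summed immune markers were highest in these 2 libraries, at 364 and 372 CPM, against 250.4 to 334 CPM elsewhere. The summed fibroblast markers were also highest in lox/lox replicate 3 and I-KO replicate 1, at 234 and 235 CPM, against 169 to 231 CPM elsewhere. Of the defining ileal markers Fabp6 was not listed and Slc10a2 was at most 0.510 CPM, and of the stomach markers Gkn1, Gkn2, Tff1 and Atp4b were not listed and Pgc was at most 1.74 CPM. The part of cell makeup and of the site along the gut in the clock values was not tested.

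Genes that answer to signals known to reach the clock of peripheral tissues were described beside it. Of 8 glucocorticoid-responsive genes, 6 were higher and 2 lower in I-KO (median log2 fold change 0.10), and 0 passed an adjusted and 1 an unadjusted p of 0.05 by limma, against 0.0299% and 4.74% of all genes tested. That one was Zbtb16 (log2 fold change 0.43, unadjusted p = 0.00656 and adjusted p = 0.822 by limma), followed by Dusp1 (0.18). Of 8 immediate early genes, whose transcripts rise within minutes of a stimulus, all 8 were higher in I-KO with a median of 0.22. Of all 13399 genes tested, 6784 were higher, and the direction of the list was not tested. By limma, 0 of the 8 passed an adjusted or an unadjusted p of 0.05, against the same shares of all genes. The lowest p among these 8 belonged to Fos (0.24) and Jun (0.25).

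Temperature-responsive transcripts, which follow the daily rhythm of body temperature, had the median farthest from 0 of the 3 lists. Of 8, 2 were higher and 6 lower in I-KO (median log2 fold change -0.49). The 2 higher were the cold-inducible Cirbp and Rbm3 and the 6 lower were chaperone genes, so the median pools both kinds. By limma, 0 of the 8 passed an adjusted and 2 an unadjusted p of 0.05, where 0.0299% and 4.74% of all genes did. The cold-inducible gene Cirbp had 16.4, 16.9 and 15.2 CPM in lox/lox and 21.3, 18.1, 26.9 and 30.5 CPM in I-KO replicates, so that the groups did not overlap (log2 fold change 0.53, unadjusted p = 0.00980 and adjusted p = 0.831 by limma). The chaperone gene Hsp90aa1 had 429.9, 433 and 371 CPM in lox/lox and 329, 369, 219 and 279 CPM in I-KO replicates, again without overlap, as for 6.19% of all genes tested (-0.48, unadjusted p = 0.0181 and adjusted p = 0.954 by limma). The cold-inducible Rbm3, which is controlled much like Cirbp, did not share its difference between the genotypes and had a log2 fold change of 0.02. Rbm3 had 96.8, 92.6 and 63.4 CPM in lox/lox and 64.1, 84.9, 87.3 and 105 CPM in I-KO replicates. It was thus lowest in lox/lox replicate 3 and I-KO replicate 1 and highest in I-KO replicate 4. Of the 3 lists, the part in the clock values was not tested.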

How the data were processed

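Duodenal RNA of 3 Ppara lox/lox and 4 Ppara I-KO mice was sequenced with stranded 100 base single reads. The labels gave genotypes and replicate numbers. The submitters' processing notes name FastQC 0.11.2, TopHat2 2.0.13, Picard 1.80, HTSeq 0.6.1, edgeR and mm10. The authors deposited signal values, gene counts divided by an adjusted library size (CPM) with 2 decimals, whose columns sum to between 969589 and 1098618. Reads behind the values were inferred from the step of 1 read and used for depth and counting intervals, which cover counting error only. A last line without a gene name was dropped.

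Genes above 1 CPM in 3 or more libraries (13399) were tested with limma 3.58.1 (R 4.3.3) on log2(CPM + 1), fitting genotype alone, with Benjamini-Hochberg adjustment over all genes tested. Single genes were compared by exact permutation over the 35 assignments of genotype, and pairs over all 5040 pairings. On simulated data the fit called 87.5% of 200 genes changed by 1 on the log2 scale, 30% at a change of 0.5, and 0 of 13399 where none was changed. It also called 5 and 4 unchanged genes in the first 2 of these runs. The changed genes were drawn from all genes tested, whose median SD was 0.144, against 0.212 for the 10 clock genes. Rates for the 10 were not measured. Replicates differed beyond sampling noise (chi-square over its degrees of freedom 14.6 or more).

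The 10 genes and all lists were chosen with earlier results of these data known. All 10 are named with all values, as are Nr1d1, Nr1d2, Ciart, Bhlhe40, Bhlhe41, Nfil3 and Hlf of the other clock genes, the 5 genes most like Dbp and Arntl, and up to 2 genes of each signal list with the lowest p. One further gene of the rule is not reported here. Rbm3, Nampt and the duodenal markers were named after their values were seen. Over the 7 libraries the summed markers of fibroblasts ranged from 169 to 235 CPM, of enteric neurons from 16.1 to 21.2 CPM and of adipocytes from 18.9 to 34.0 CPM. Positions are from GENCODE M21 on GRCm38 (mm10). Python 3.11.15, numpy 2.4.6, pandas 2.3.3, scipy 1.17.1 and matplotlib 3.10.9 were used.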

Additional observations from a re-analysis of the deposited data

Results flagged for a closer look

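Of 18 clock genes searched for a library far from the others of a group of 4, 1 was found, where chance would give 0.9. Bhlhe40, a repressor at E-boxes, had 201 CPM in I-KO replicate 4 and 306, 309 and 292 CPM in I-KO replicates 1 to 3. The gap from the lowest value to the next took 0.840 of the range of the group. In lox/lox replicates 1 to 3, Bhlhe40 had 299, 219 and 226 CPM, so the low value lies near that of 2 lox/lox libraries.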

How the results depend on the processing

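In each alternative run, 0 of the 10 clock genes and 0 of the other clock genes passed an adjusted p of 0.05, also at thresholds of 0.1 and 0.01, while limma called between 3 and 12 genes in all. Of 180 alternative log2 fold changes of the 10 genes, 13 changed direction and none changed its call, with a smallest adjusted p of 0.668. With the replicate block, which leaves out I-KO replicate 4, Per3 was -0.0303, Cry1 0.0727 and Dbp -0.0272, and 0 of the 10 passed. Deviations of same-numbered libraries from their group means had correlations of -0.0141, 0.184 and -0.00923. Those of different number had -0.355 to 0.283. With groups this small, this cannot settle whether the numbers pair mice. With sample quality weights Dbp was -0.0441. Leaving out 1 library at a time, Arntl lay between -0.218 and 0.0937 on the log2 scale, Npas2 between -0.0433 and 0.243, Per3 between -0.0853 and 0.198, Cry1 between -0.111 and 0.0727, and Dbp between -0.172 and 0.236. An unadjusted p under 0.05 was reached by Tef without lox/lox replicate 2 (0.0401) or I-KO replicate 1 (0.0325) and by Cry2 without I-KO replicate 2 (0.0419).

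The correlation of Arntl and Dbp lay between -0.93 and -0.78 when 1 library was left out, was -0.81 with column totals (adjusted p = 0.0762, exact permutation) and -0.75 without the 2 libraries farthest from the median, and it passed in neither of the latter 2, while of the 7 fits with 1 library left out it passed only without lox/lox replicate 1 or 2. Without the 2 farthest libraries, Arntl and Npas2 had -0.0699 and Npas2 and Dbp 0.46. Dbp and Tef lay between 0.28 and 0.93 when 1 library was left out, passing without lox/lox replicate 1. Per1 and Per2 lay between -0.41 and 0.0620, and had 0.00601 as deviations from the genotype mean. The causes were not tested. The spread of Arntl was 0.0875 without lox/lox replicate 3 and 0.254 without I-KO replicate 1, alternatives added after the data were seen. Among the 10 genes depth was lowest for Dbp, with 91 to 160 reads per library, and Nr1d1 had 26 to 86 reads.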
